A study of Mus musculus with 3 samples.

Results

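ChIP-seq with an antibody to the forkhead factor Foxc2 on mouse kidney glomeruli gave a group of peaks that lay at the ends of genes and overlapped no Foxc1 peak, and that group is described here. Its members were chosen by position and overlap in the deposited peak lists: a Foxc2 peak on chromosomes 1 to 19, X or Y qualified when no Foxc1 peak overlapped it by 1 bp or more and its summit lay within 1 kb of either end of a protein-coding RefSeq gene (mm10). Of 2878 Foxc2 peaks on these chromosomes, 1391 met both conditions (48.3%, or 56.7% of the 2453 Foxc2 peaks without an overlapping Foxc1 peak). The material was C57BL/6 glomeruli at 8 weeks of age, from an adult perfused with magnetic beads that lodge in the glomeruli, with 1 library for Foxc2, 1 for Foxc1 and 1 of input DNA, and the labels name no treatment or mutant allele. The antibodies came from different makers, R&D Systems for Foxc2 and CST for Foxc1. Bead-captured glomeruli hold podocytes, mesangial cells and endothelium together, so a peak cannot be tied to a cell type from these lists, and peak lists carry no expression values with which to check the tissue. No values of the input were used. The lists hold no read counts, so the depth is unknown. With 1 library per antibody, intervals and p-values below cover counting error over peaks or genes in these libraries and no spread between animals.

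Foxc1 and Foxc2 are closely related forkhead transcription factors that share a winged-helix DNA-binding domain and recognise short AT-rich cores such as GTAAACA. In the kidney both are made by podocytes, the epithelial cells whose interlocking foot processes and slit diaphragms filter the blood. A gene start, or promoter, is where transcription begins, and a large class of mammalian promoters is rich in CG dinucleotides (CpG) and in GC boxes, the sites of SP and KLF factors.

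The RefSeq promoters (GRCm38.p6) of the strongest members were dominated by GC-rich sequence. Below are the 6 genes of highest fold whose Foxc2 summit lay inside the promoter window, and they are shown because the results turn on what such promoters hold. Each line runs 5′ to 3′ on the strand of the gene, from 250 bases before the start to 30 bases after it. Capitals mark matches, on either strand, to the GC box GGGCGG, to the ETS core CCGGAAG, to CCAAT or to the forkhead cores GTAAACA and GTAAATA. Amotl2 encodes an angiomotin that binds Hippo pathway coactivators (chr9:102717554-102717833, plus strand), Ptpn14 a phosphatase that binds the coactivator Yap1 (chr1:189728018-189728297, plus strand), and Nab2 a corepressor of EGR factors (chr10:127666674-127666953, minus strand). Bmpr1a encodes a receptor for bone morphogenetic proteins (chr14:34502517-34502796, minus strand), Pard6b a member of the Par cell polarity complex (chr2:168080754-168081033, plus strand), and Nab1 the close relative of Nab2 (chr1:52500419-52500698, minus strand).
Amotl2: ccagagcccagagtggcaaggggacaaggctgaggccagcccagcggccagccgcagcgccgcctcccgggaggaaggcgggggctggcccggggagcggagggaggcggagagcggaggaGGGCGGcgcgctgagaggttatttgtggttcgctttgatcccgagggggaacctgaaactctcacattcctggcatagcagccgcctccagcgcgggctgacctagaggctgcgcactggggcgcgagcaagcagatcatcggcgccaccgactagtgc
Ptpn14: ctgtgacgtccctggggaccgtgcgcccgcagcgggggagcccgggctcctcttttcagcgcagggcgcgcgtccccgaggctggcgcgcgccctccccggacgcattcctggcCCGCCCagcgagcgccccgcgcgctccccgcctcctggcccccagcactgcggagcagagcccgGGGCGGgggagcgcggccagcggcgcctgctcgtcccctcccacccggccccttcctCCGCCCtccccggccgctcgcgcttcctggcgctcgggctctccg
Nab2: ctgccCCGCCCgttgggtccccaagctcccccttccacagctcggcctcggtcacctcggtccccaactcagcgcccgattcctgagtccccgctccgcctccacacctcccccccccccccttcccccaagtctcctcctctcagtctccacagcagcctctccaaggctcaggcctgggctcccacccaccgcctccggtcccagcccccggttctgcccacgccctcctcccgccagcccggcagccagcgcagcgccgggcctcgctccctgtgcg
Bmpr1a: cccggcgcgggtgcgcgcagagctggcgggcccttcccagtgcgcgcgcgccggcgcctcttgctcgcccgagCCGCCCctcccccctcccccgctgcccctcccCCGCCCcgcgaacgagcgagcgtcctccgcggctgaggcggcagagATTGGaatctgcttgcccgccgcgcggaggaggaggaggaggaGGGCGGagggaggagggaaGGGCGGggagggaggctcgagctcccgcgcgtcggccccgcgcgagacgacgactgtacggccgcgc
Pard6b: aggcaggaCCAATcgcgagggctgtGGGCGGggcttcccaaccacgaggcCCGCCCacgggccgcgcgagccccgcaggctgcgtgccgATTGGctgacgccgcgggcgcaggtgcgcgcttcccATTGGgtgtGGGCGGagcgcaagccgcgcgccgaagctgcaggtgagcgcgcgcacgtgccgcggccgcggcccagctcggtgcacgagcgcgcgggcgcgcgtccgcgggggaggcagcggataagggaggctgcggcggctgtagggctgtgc
Nab1: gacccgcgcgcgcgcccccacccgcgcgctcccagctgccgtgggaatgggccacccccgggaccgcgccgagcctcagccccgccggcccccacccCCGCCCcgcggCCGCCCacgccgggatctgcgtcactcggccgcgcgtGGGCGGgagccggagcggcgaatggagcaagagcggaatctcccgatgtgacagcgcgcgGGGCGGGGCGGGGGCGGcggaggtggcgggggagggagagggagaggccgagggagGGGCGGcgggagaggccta

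All 6 sequences held at least 1 GC box, from 1 in Amotl2 and Nab2 to 7 in Nab1, and none held a forkhead core or the ETS core. Their GC content ran from 69.3% (Amotl2) to 80.7% (Nab1). The summits lay 168, 80, 211, 6, 5 and 52 bp before the printed gene starts, in the order given above.

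Forkhead cores were present in a small number of member promoters and were more frequent in promoters where Foxc1 and Foxc2 peaks overlapped. The next lines show the member of highest fold that had a core and its summit in the window, Dnajb12, which encodes a DnaJ co-chaperone (chr10:59879333-59879612, plus strand). They also show 2 promoters of overlapped Foxc2 peaks picked by the same rule, Peli2, an E3 ubiquitin ligase gene (chr14:48120619-48120898, plus strand), and Btg1, an antiproliferative gene (chr10:96616751-96617030, plus strand). These 3 were chosen after the motif counts were seen and only illustrate them.
Dnajb12: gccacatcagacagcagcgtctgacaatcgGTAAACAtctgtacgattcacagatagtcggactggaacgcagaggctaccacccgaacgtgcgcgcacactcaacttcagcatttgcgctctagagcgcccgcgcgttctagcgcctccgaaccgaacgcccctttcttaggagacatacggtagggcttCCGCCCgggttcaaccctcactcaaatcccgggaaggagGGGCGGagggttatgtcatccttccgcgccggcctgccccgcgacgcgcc
Peli2: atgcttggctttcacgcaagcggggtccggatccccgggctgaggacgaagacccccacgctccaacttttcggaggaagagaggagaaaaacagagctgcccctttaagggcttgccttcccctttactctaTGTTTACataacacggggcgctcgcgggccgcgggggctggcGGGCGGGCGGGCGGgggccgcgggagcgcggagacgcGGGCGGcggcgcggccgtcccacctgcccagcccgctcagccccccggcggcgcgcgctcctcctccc
Btg1: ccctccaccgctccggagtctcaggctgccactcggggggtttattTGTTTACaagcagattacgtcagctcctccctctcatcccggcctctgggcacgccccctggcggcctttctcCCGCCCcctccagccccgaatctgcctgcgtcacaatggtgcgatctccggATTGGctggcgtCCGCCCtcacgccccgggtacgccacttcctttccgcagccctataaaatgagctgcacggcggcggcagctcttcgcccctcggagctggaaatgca

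The gene ends at which the members lay were almost always starts. RefSeq promoters gave the strand of 17492 of the 21887 protein-coding genes, and with it the strand of at least 1 gene at 1143 members. Of these, 1121 had a gene start within 1 kb of the summit (98.1%, exact Clopper-Pearson 95% interval 97.1 to 98.8%), of which 31 also had a stop within 1 kb. The other 22 had a stop and no start of known strand (1.92%, 1.21 to 2.90%). The remaining 248 members, 37 of them on chromosome 18, lay only at genes whose strand was not known here. Since the rule asked for either end, the balance of starts and stops was not fixed by it. Peaks of Foxc1 alone at gene ends, 451 in number, had a start without a stop in 276 cases and a stop without a start in 80, against 1090 and 22 for the members (odds ratio 14.4, two-sided Fisher's exact test over peaks, adjusted p = 2.67e-32 over 8 comparisons of this kind). The 116 overlapped Foxc2 peaks at gene ends gave 93 and 2, and no difference from the members was detected (odds ratio 1.07, Fisher's exact test, adjusted p = 0.713).

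Summits of the members were centred just downstream of the outermost start of the gene. Distances here are to that outer end, so a peak at an inner start counts as downstream. At Bmpr1a the summit lay 784 bp downstream of the outer end and 6 bp before the printed promoter start. Of member promoters, 75.9% started within 100 bp of the outer end. The part of inner starts in the positions below was not tested. Among the 1121 with a start, the median position was 99 bp downstream, with quartiles at -56 and 272 bp, and 723 (64.5%) lay within 250 bp. The most populated 100 bp bins were the first and the next after the start, with 190 and 183 summits, and 143 lay in the last 100 bp before it. Upstream of the start lay 372 (33.2%, exact interval 30.4 to 36.0%) and downstream 749. Foxc1-only peaks at gene starts lay upstream in 160 of 291 cases (55.0%, exact interval 49.1 to 60.8%), with a median of -46 bp and quartiles of -283.5 and 465.5 bp, so they were spread more widely than the members. The upstream shares differed (odds ratio 0.407, Fisher's exact test, adjusted p = 5.09e-11). Overlapped Foxc2 peaks lay upstream in 37 of 94 cases (39.4%, Fisher's exact test, adjusted p = 0.341). When peaks below fold 5 were dropped, the upstream share of the members was 46.2% and the difference from Foxc1-only peaks did not pass (odds ratio 0.757, Fisher's exact test, adjusted p = 0.559, range over alternatives 1.06e-13 to 0.559).

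**Figure D1:**
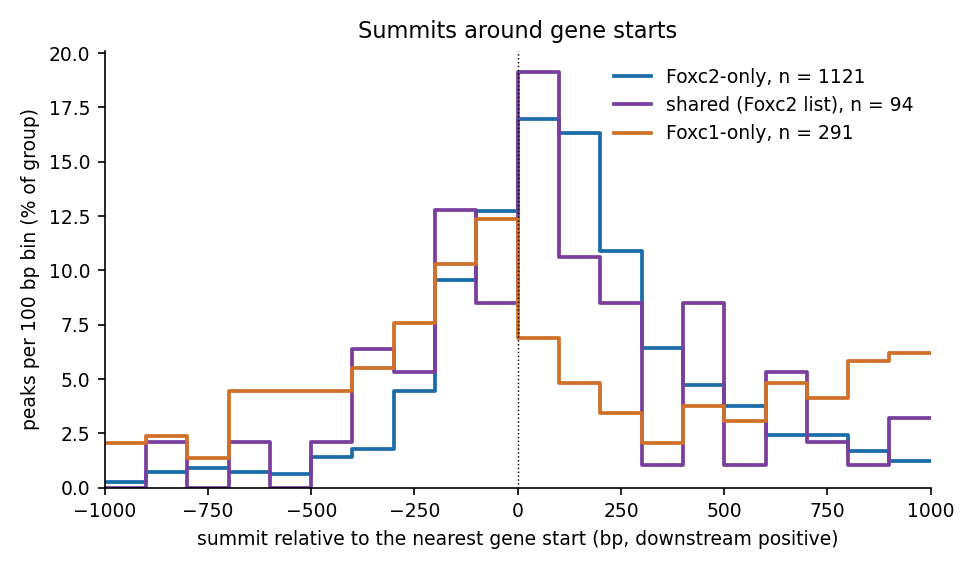
Position of summits relative to the nearest gene start (x axis, bp, downstream positive) as the share of each group's peaks per 100 bp bin (y axis, %), for Foxc2-only, Foxc1-only and shared (overlapped Foxc2) peaks. The gene start is the outer end of the gene, so peaks at inner starts count as downstream. The Foxc2-only peaks (n = 1121) peak in the 200 bp after the start, while the Foxc1-only peaks (n = 291) have their highest bin, 12.4%, in the 100 bp before it.

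Starts that face another start on the opposite strand, known as head-to-head or bidirectional promoters, held 123 members (10.97% of those with a start, exact interval 9.20 to 12.95%). A peak there has more than 1 gene end by which it can enter. This share counts peaks, with both starts within 1 kb of the summit. Over all 17492 genes of known strand, 10.3% of starts had a partner start within 1 kb, a count of genes that is not alike. Counted by gene in that way, 241 of the 1206 genes with a member at the start had one (20%). There a single peak near 2 starts counts for both. The share was 13.7% in Foxc1-only and 8.51% in overlapped peaks, and neither difference passed (Fisher's exact test, adjusted p = 0.341 and 0.689). The strongest of these members (fold 5.85) lay 326 bp upstream of the start of Ddit3, a stress-induced transcription factor gene, and 402 bp downstream of that of Mbd6. It was followed by peaks at Ptprj, a receptor phosphatase gene (5.67), Etv6, an ETS family repressor gene (5.44), Arpc5, a subunit of the actin-nucleating Arp2/3 complex (5.28, facing Rgl1), and Cert1, a ceramide transfer protein gene (5.13, facing the DNA polymerase gene Polk). Hnrnpa2b1 and Cbx3, a pair of divergently transcribed genes, shared 2 members, of folds 4.30 and 2.86.

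Members seldom came in groups at a start. Of 1206 genes with a member at the start, 1163 had 1, 42 had 2 and a single gene, Sp4, had 3. Sp4 encodes an SP family factor that binds GC boxes, and its peaks of folds 4.0, 4.13 and 4.99 lay 351 bp downstream and 264 and 783 bp upstream of the start. Sp1, of the same family, had 2. So did Cd2ap, which encodes an adaptor at the slit diaphragm, with folds of 4.30 and 3.95 at 345 bp downstream and 36 bp upstream, and Fyn, the kinase that phosphorylates nephrin, with folds of 5.16 and 3.95 at 695 and 15 bp downstream. Rxra, which encodes the retinoid X receptor, had peaks of folds 7.38 and 6.53 at 72 bp upstream and 535 bp downstream. These genes, other than Rxra, were singled out after their values were seen.

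The members were weak peaks by the caller's own measure. Fold enrichment is the authors' ratio of the signal at the summit to the local background, and it comes from the same peak calling that chose the members, so it is given as a description. The members' median fold was 3.78 (quartiles 3.44 and 4.30, highest 10.3), the median minus log10 of q was 4.43 and the median width 335 bp. Foxc2-only peaks elsewhere had a median fold of 4.13 and overlapped Foxc2 peaks at gene ends one of 4.30. A fold of 5 or more was reached by 122 members (8.77%), by 235 of the 1062 Foxc2-only peaks elsewhere (22.1%) and by 23 of the 116 overlapped peaks at gene ends (19.8%). Folds took few distinct values: 186 values served all 1391 members, and 101 members shared the value 3.95, so ranks among weak members are mostly ties.

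The 15 members of highest fold lay at genes of several kinds. The strongest, of fold 10.3 (chr7:45567976-45568657), lay 679 bp upstream of the start of Bcat2, a mitochondrial branched-chain aminotransferase gene, and 967 bp from an end of Hsd17b14. Dock5, which encodes an activator of the GTPase Rac, followed with a fold of 9.63 at 89 bp from an end (chr14:67933300-67933861). Podxl, which encodes podocalyxin, the sialomucin of the podocyte surface, had a fold of 8.60 at 63 bp. Amotl2 also reached 8.60, at 545 bp downstream of the outermost start of the gene, and Foxd1, a forkhead gene of the stromal and podocyte lineages, reached 8.25 at 552 bp downstream. Then came Kmt2c, a histone H3 lysine methyltransferase gene (7.91), Ptpn14 (7.57), Trim8 (7.52), a peak at both Tshz1 and Zadh2 (7.39), Rxra (7.38), Pgpep1l (7.22), Nab2 (7.05) and, at 6.88 each, Bmpr1a and Pard6b. One of the 15 lay at stops: a peak of fold 7.05 (chr17:24638831-24639294) sat between the converging genes Nthl1, a DNA repair glycosylase gene, and Slc9a3r2, which encodes a scaffold that binds podocalyxin, at 132 and 311 bp beyond their stops.

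Members at stops were few and were no weaker than those at starts. The 22 with a stop and no start had a median fold of 4.30, against 3.78 for the 1090 with a start and no stop, and 17 of them lay beyond the stop, outside the gene. After Nthl1 and Slc9a3r2 the strongest were BC004004 (6.36), Wnt8b, a Wnt ligand gene (6.17), Sema3g, a semaphorin gene of podocytes (5.67, inside the gene at 706 bp from its stop), and Prkaca, the catalytic subunit of protein kinase A (5.50, at 714 bp beyond it). The last peak also lay 358 bp from an end of Samd1 whose strand was not known here, so a start there is possible. It was the only one of the 22 with such an end. Of the 22, 2 were also that close to a non-coding gene.

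The limit of 1 kb did not fall in a gap of the distances. Just inside it, the 5 farthest members lay 978 to 998 bp from an end with folds of 3.27 to 4.99, at Spaca6, Rnf169, Ap3m2, Cgnl1 and Zfp710. Just outside it, 5 Foxc2-only peaks lay at 1003 to 1021 bp with folds of 3.44 to 4.64, nearest to Pigv, Cables1, Tmem106c, Nsmaf and 9030025P20Rik.

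Promoters with a member were richer in G, C and CpG than most. The nearest start gene gave 1085 distinct promoter windows, from 250 bases before to 50 after the start. Their median GC content was 67.0% (quartiles 61.3 and 72.7%), against 56.3% over all 17492 promoters, and the median ratio of observed to expected CpG was 0.871 against 0.577. With CpG-rich defined as a ratio of at least 0.6 and a GC content of at least 50%, 88.7% of the 1206 genes with a member at the start had a CpG-rich promoter, against 45.8% of all. A member lay at the start of 1070 of 8004 genes with a CpG-rich promoter (13.4%) and of 136 of 9488 others (1.43%). Overlapped peaks resembled the members in this, with a median GC content of 65.8%, while Foxc1-only starts stood at 59.7%.

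The forkhead core was rarer in member promoters than at the starts of the comparison groups. GTAAACA or GTAAATA, on either strand, occurred in 33 of the 1085 windows (3.04%, exact interval 2.10 to 4.25%), against 5.42% of all promoters. It occurred in 16 of 94 promoters of overlapped Foxc2 peaks (17.0%, 10.1 to 26.2%) and in 50 of 289 of Foxc1-only peaks (17.3%, 13.1 to 22.2%). The members differed from both (odds ratios 0.153 and 0.150, Fisher's exact test, adjusted p = 5.82e-07 and 3.42e-15). By the rule, peaks of both comparison groups are or overlap a Foxc1 peak, and no member overlaps one. These tests therefore also set peaks with Foxc1 against peaks without it, and the part of that choice in the difference was not tested. Most of these windows did not hold the member's summit, which lay inside the window at 434 promoters. Of those 434, 10 had a core (2.30%). With the summit inside the window in each group, the odds ratios were 0.0613 and 0.0293 (Fisher's exact test, adjusted p = 4.19e-07 and 1.87e-25). When peaks below fold 5 were dropped, the odds ratio against overlapped peaks was 0.149 and the test did not pass (Fisher's exact test, adjusted p = 0.115, range over alternatives 9.76e-08 to 0.115), and against Foxc1-only peaks it passed in each of the alternatives run (largest adjusted p by Fisher's exact test 0.00212). A shorter core, TAAACA, which overlaps the longer one, gave 5.53% in the members, 25.5% and 18.7% in these groups and 11.5% over all promoters. Member promoters with a core belonged to Maml3, a Notch coactivator gene (fold 5.75), Dnajb12 (5.16), Cert1 (5.13), the kinase gene Akt1 (4.63) and 29 weaker members.

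GC content moves with this motif, so the shares were also set out by GC content, a split added after the data were seen. Under 60% GC, the core was found in 7.37% of 217 member promoters and in 7.51% of all such promoters. From 60 to under 70% GC the values were 3.21% of 467 and 2.68%, and from 70% GC 0.499% of 401 and 0.766%. At each GC level the exact interval of the members held the share of all promoters. In the middle class, overlapped peaks stood at 18.8% of 48 promoters (exact interval 8.95 to 32.6%) and Foxc1-only peaks at 19.8% of 111 (12.9 to 28.5%), both above the members' interval of 1.81 to 5.24%. From 70% GC, overlapped peaks stood at 17.2% of 29 (5.85 to 35.8%), and Foxc1-only peaks at 1 of 31. Under 60% GC, overlapped peaks had 2 of 17, with an interval that spans the members' value. Foxc1-only peaks there had 27 of 147 (18.4%, 12.5 to 25.6%), above the members' interval of 4.27 to 11.7%. Among the members the share with a core was similar at all peak heights, at 3.45, 2.74, 2.89 and 3.33% at folds under 3.5, from 3.5, from 4 and from 5 upward.

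**Figure D2:**
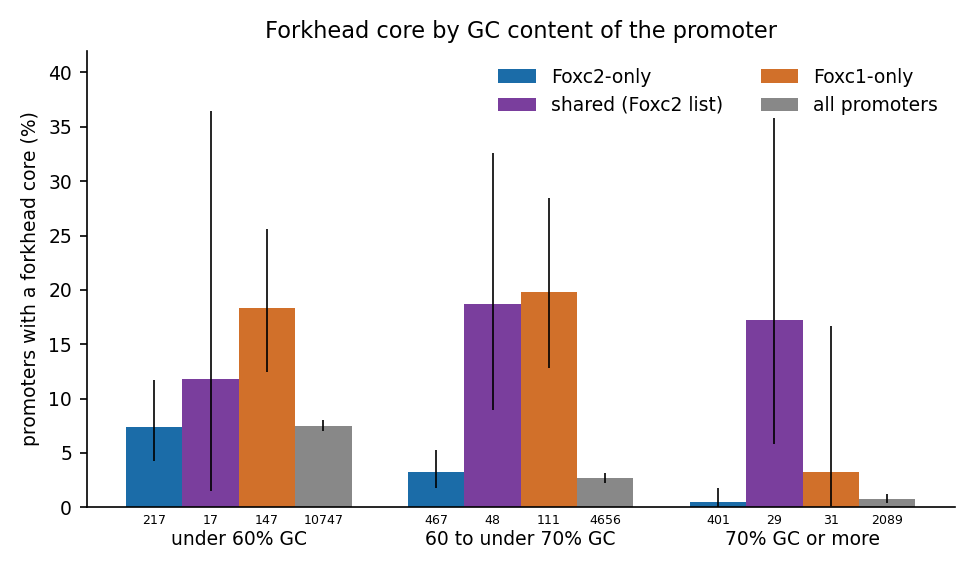
Share of promoter windows with a forkhead core (y axis, %) in 3 classes of promoter GC content (x axis), with exact 95% intervals as lines and the number of promoters under each bar. Foxc2-only peaks (blue) stand beside all promoters (grey) in every class, at 7.37 against 7.51%, 3.21 against 2.68% and 0.499 against 0.766%.

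Where a core was present, it lay at the summit in Foxc1-only promoters and seldom in member promoters. Among peaks whose summit lay inside the window, the median distance from summit to nearest core was 126 bp for 10 members, 74 bp for 10 overlapped Foxc2 peaks and 10 bp for 41 Foxc1-only peaks. Within 50 bp lay 3 of 10, 2 of 10 and 35 of 41 (85.4%, exact interval 70.8 to 94.4%). The first 2 groups are small, with exact intervals of 6.67 to 65.2% and 2.52 to 55.6%, and these distances were not tested.

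Shares of other motifs are given beside those of all promoters, and some did not keep their side among stricter peaks. The GC box was found in 80.5% of member promoters against 46.3% of all, but in GC classes the members and all promoters were close from 60% GC upward (83.5 and 78.0%, then 94.3 and 93.0%), and apart under 60% GC (48.4 and 23.5%). The ETS core was found in 16.3% against 11.9% of all promoters. Its share was 11.97% (51 of 426) at a q-value of at most 1e-05 and 16.7% (15 of 90) at fold 5 or more. In overlapped and Foxc1-only promoters the ETS core stood at 9.57 and 23.9%. By GC class the ETS shares of members and all promoters were 14.3 and 8.33% under 60% GC, 19.9 and 19.95% from 60 to under 70%, and 13.2 and 12.4% from 70%. GCATGCGC, part of the site of Nrf1, a regulator of mitochondrial and growth genes, was in 7.0% against 3.61%, but in 2 of 90 promoters (2.22%) at fold 5 or more. AAGATGGCG, bound by Yy1, was in 3.41% against 1.92%, but in 6 of 426 (1.41%) at the stricter q-value and 1 of 90 (1.11%) at fold 5 or more, below the share of all promoters. GGAATG of the TEAD factors was in 9.95% against 13.5%, but in 14 of 90 (15.6%) at fold 5 or more. GCGTGGG, bound by EGR factors and Wt1, was in 11.4% against 6.16%, the CREB site TGACGTCA in 4.24% against 2.33%, and the E-box CACGTG in 11.98% against 7.91%. In overlapped and Foxc1-only promoters GCGTGGG stood at 13.8 and 7.96%, TGACGTCA at 3.19 and 5.88% and CACGTG at 11.7 and 11.4%. Below the shares of all promoters were CCAAT (33.0 against 39.2%), the TATA box TATAAA (4.70 against 13.3%), TGANTCA of AP-1 (3.32 against 7.03%) and TAATTA of homeodomain factors (1.29 against 4.69%). ACTACAATT of Znf143 was in 0.461% against 0.543%. Motifs other than the forkhead core, the GC box and the ETS core were not split by GC content, in which members and all promoters differ. All were searched on both strands. A match is a string of letters and not a measured site.

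**Figure D3:**
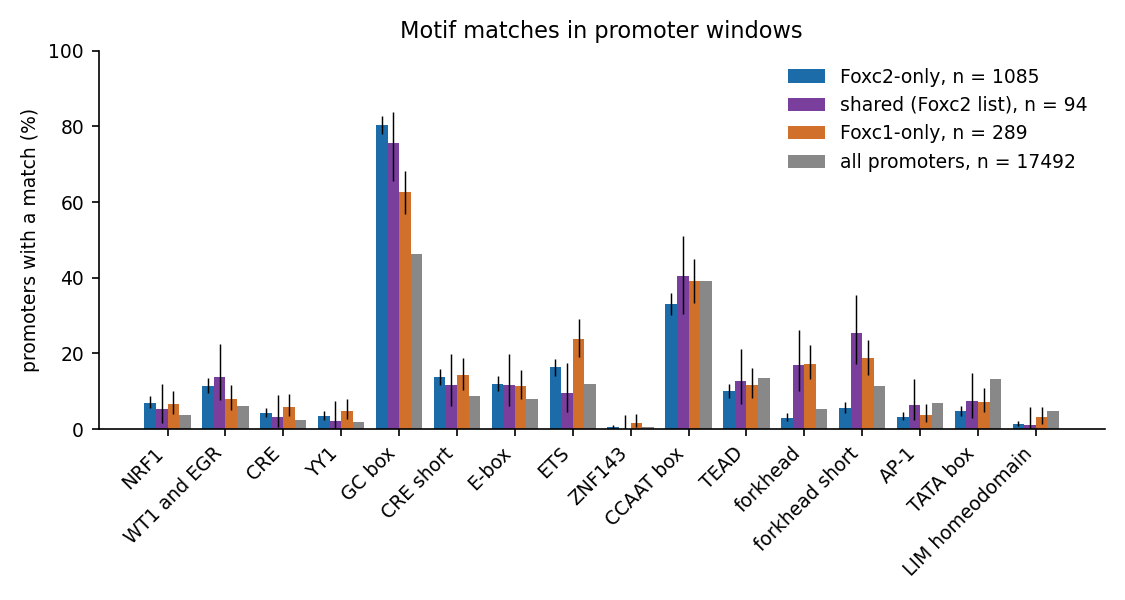
Share of promoter windows with each motif (y axis, %), ordered from left to right by the ratio of Foxc2-only to all promoters, with exact 95% intervals as lines. "Short" forms are TAAACA for forkhead and TGACGT for CRE. For the forkhead core, Foxc2-only promoters stand at 3.04% and both comparison groups at 17%.

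Genes of the podocyte had members at their starts more often than protein-coding genes at large. Over all genes of known strand, 1206 of 17492 had one (6.89%), and this background holds for the gene lists below, which were chosen with earlier results of these data known. Of 40 podocyte genes of known strand, 16 had a member at the start (40.0%, exact interval 24.9 to 56.7%). Counting either end of all 52 genes gave 23 (44.2%), against 6.95% over all 21887 genes. Among CpG-rich promoters alone, 12 of 22 had one, against 13.4% over such promoters. When peaks below fold 5 were dropped, 7 of 40 podocyte genes still had one (17.5%), against 0.543% of all genes.

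The genes with a member are given here by role, beginning with the slit diaphragm and its adaptors, an order that is no ranking. Nck2, which encodes an adaptor that couples nephrin to actin, had a member of fold 6.57 at 166 bp downstream of its start. The kinase gene Fyn and the adaptor gene Cd2ap have been described, and Kirrel, a nephrin-related gene, had one of fold 3.86 at 19 bp downstream. Among polarity genes, Pard6b had one of fold 6.88 at 5 bp upstream, Pard3b of 6.33 at 248 bp, Prkci, an atypical protein kinase C gene, of 3.83 at 24 bp and Pard3 of 3.57 at 708 bp, the last 3 downstream. Of the actin regulators, the formin gene Inf2 had one of 6.19 at 62 bp downstream and Wasl, an activator of the Arp2/3 complex, of 5.85 at 3 bp upstream. In all, 10 of 28 slit diaphragm and actin genes of known strand had a member at the start (35.7%, exact interval 18.6 to 55.9%).

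Signalling and matrix genes of the podocyte were also present. Plce1, a phospholipase gene mutated in nephrotic syndrome, had a member of fold 5.67 at 122 bp downstream. The divergent pair Col4a3 and Col4a4, which encode collagen chains of the glomerular basement membrane, shared 1 of fold 5.33, at 11 bp from an end of Col4a3 and 102 bp downstream of the start of Col4a4. The integrin gene Itga3 had one of 6.19 at 165 bp downstream, and Lamc1, a laminin gene, one of 4.64 at 159 bp from an end. In the list of basement membrane and integrin genes, 6 of 22 had one at the start (27.3%, exact interval 10.7 to 50.2%), and in the list of nephrotic syndrome genes 9 of 53 (17.0%, exact interval 8.07 to 29.8%). Among CpG-rich promoters alone these lists had 5 of 18 (27.8%) and 7 of 34 (20.6%), against 13.4% over all such promoters. These lists share genes with the podocyte list, so their counts are not independent.

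Transcription factor genes of the podocyte carried members close to their ends. Lmx1b had one of fold 5.16 at 230 bp downstream of its start, and Wt1 one of 4.99 at 102 bp from an end. At the gene Foxc1 the member had a fold of 4.47 and lay 7 bp upstream of the start (chr13:31806371-31806782). Foxd2 had one of 4.65 at 34 bp upstream, and Foxd1 is given above. Of 16 podocyte transcription factor genes of known strand, 5 had a member at the start (31.3%, exact interval 11.02 to 58.7%). Of 28 forkhead genes, 6 had one (21.4%, exact interval 8.30 to 41.0%), Foxo3, a forkhead factor regulated by insulin signalling, among them (5.25 at 133 bp upstream). No member lay at an end of Foxc2, Tcf21, Nphs1 or Synpo. An end of Smo, the hedgehog signal transducer gene, had a Foxc2 peak that a Foxc1 peak overlapped and is therefore no member.

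Hippo pathway genes had members at 8 of 22 starts (36.4%, exact interval 17.2 to 59.3%). Besides Amotl2 and Ptpn14 these were Sav1 (fold 4.0), a scaffold of the Hippo kinases, Wwc2 (3.61), Mob1a (3.57), the tumour suppressor gene Nf2 (3.48), the kinase gene Lats2 (3.25) and Mob1b (2.71). With a q-value of at most 1e-05 the count fell to 3 of 22 (13.6%), and the background to 2.67%. Notch genes had members at 3 of 20 starts (15%, exact interval 3.21 to 37.9%), namely Maml3 (5.75), Notch2 (3.67) and Hey2 (3.00). Hedgehog genes had 1 of 16, at the coreceptor gene Cdon (3.71). Among CpG-rich promoters alone, Hippo genes had 8 of 19 (42.1%), Notch genes 3 of 16 (18.8%) and hedgehog genes 0 of 8. Over all such promoters the share was 13.4%.

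Lists of markers of other kidney cells gave too few genes to be told apart from the background of 6.89%, which the exact interval of each of the 6 lists holds. The lists of glomerular endothelium (15 genes of known strand), parietal epithelium (11), proximal tubule (22) and immune cells (19) had 0 each, also at either end, and counts of 0 allow shares of up to 20, 27.3, 13.6 and 15.8%. In the mesangial list 1 of 20 had one, and that was Foxd1, which is also in the podocyte transcription factor list. In the distal nephron list 1 of 21 had one, Wnk1, a broadly expressed kinase gene (3.56). Few genes of these lists had CpG-rich promoters: 7, 4, 5 and 0 in the lists at 0, in the order given. Among such promoters the mesangial list had 1 of 9 and the distal nephron list 1 of 5, against 13.4% over all. None of 944 olfactory receptor genes and none of 36 keratin genes had one, and these counts of 0 allow up to 0.318 and 8.33%. Of these genes 0 and 2 had a CpG-rich promoter, and over all genes without one the share with a member was 1.43%.

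Genes used by every cell differed widely among their classes. Of 51 splicing genes, 14 had a member at the start (27.5%, exact interval 15.9 to 41.7%), Snrpe (4.64), Lsm6 (3.78), Srsf10 (3.67) and Srsf5 (3.61) at the head. General transcription genes of RNA polymerases, TFIID and Mediator gave 11 of 69 (15.9%, 8.24 to 26.7%), with Polr3g (4.99), Taf11 (4.32), Polr1c (3.95) and Polr3b (3.83) the strongest, and translation factors 8 of 55 (14.5%, 6.5 to 26.7%), with Eif1ad (4.47) and Eif5b (4.17). Nearer the background of 6.89% stood cytosolic ribosomal proteins with 5 of 64 (7.81%), Rps6 (4.81) the strongest, mitochondrial ribosomal proteins with 4 of 69 (5.80%), nuclear pore genes with 2 of 20 (10%) and histones with 8 of 97 (8.25%). The respiratory chain had 2 of 78 (2.56%), and the proteasome and the transfer RNA synthetases had 0 of 43 and 0 of 27. Set against the 13.4% over all CpG-rich promoters, the classes stood otherwise. Among such promoters general transcription genes had 9 of 56 (16.1%), translation factors 7 of 44 (15.9%) and nuclear pore genes 2 of 18 (11.1%). Splicing genes had 13 of 48 (27.1%) and histones 6 of 21 (28.6%). Cytosolic and mitochondrial ribosomal proteins had 3 of 50 (6%) and 4 of 55 (7.27%), and the respiratory chain 2 of 59 (3.39%).

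Of the 43 proteasome promoters 29 were CpG-rich, and 0 of 29 allows a share of up to 10.3%, against 13.4% over all CpG-rich promoters. For the synthetases 0 of 20 allows up to 15%. The splicing genes were weak members. At a q-value of at most 1e-05 they kept 1 of 51 (1.96%, background 2.67%) and at fold 5 or more 0 of 51, while the podocyte list had 12 of 40 (30%) and 7 of 40. Zinc finger genes named Zfp had 16 of 331 (4.83%), solute carriers 13 of 290 (4.48%) and circadian clock genes 1 of 17.

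**Figure D4:**
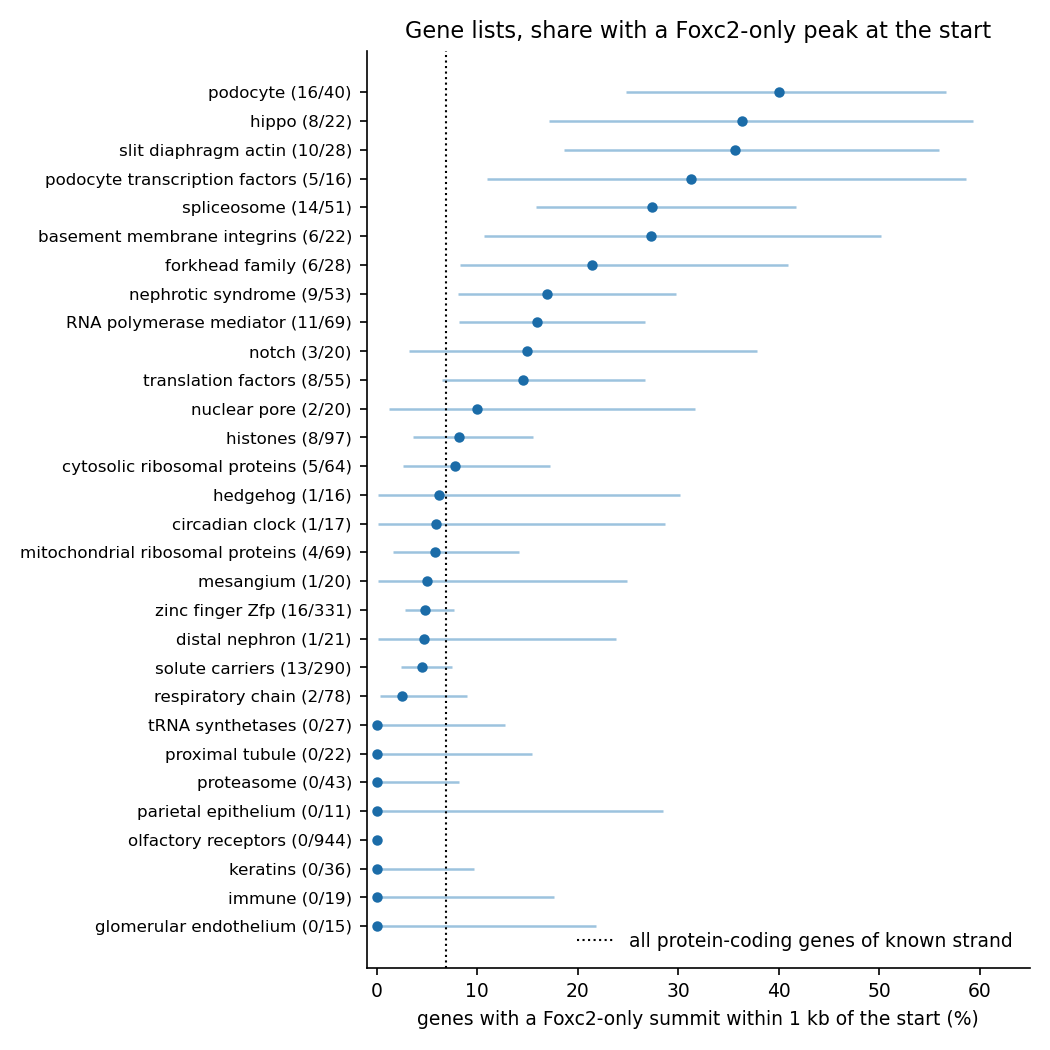
Share of the genes of each list with a Foxc2-only summit within 1 kb of the start (x axis, %; points, with exact 95% intervals as lines), with counts in parentheses. The dotted line is the 6.89% of all protein-coding genes of known strand, and podocyte genes, Hippo genes and slit diaphragm genes stand at 40.0, 36.4 and 35.7%.

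The sex chromosomes were almost bare of members. On the autosomes the number of members per 100 protein-coding genes ran from 3.60 on chromosome 7 to 8.69 on chromosome 12, with a median of 7.24. Chromosome X had 1 member for 966 genes (0.104 per 100) and Y had 0 for 256. The member on X lay 660 bp from the start of Med14, a Mediator subunit gene, with a fold of 3.78, and is named because it is the only one. Among CpG-rich promoters, 1 of 226 on X had a member at the start (0.442%, exact interval 0.0112 to 2.44%), against 1069 of 7777 on autosomes (13.7%). The Foxc2 list as a whole held 3 peaks on X of 2878, and the Foxc1 list 32 of 5207. The sex of the animals is not given in the sources used here, and the part of X copy number or mapping in this was not tested.

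**Figure D5:**
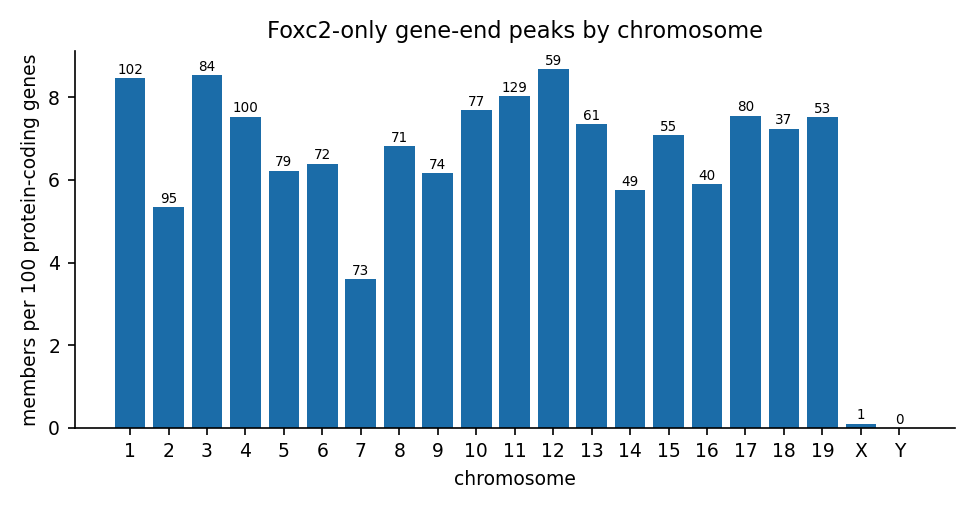
Foxc2-only gene-end peaks per 100 protein-coding genes (y axis) by chromosome (x axis), with the number of peaks above each bar. Autosomes stand between 3.60 and 8.69, X at 0.104 with 1 peak and Y at 0.

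Foxc1 peaks lay near some of the members without overlapping them. A Foxc1 summit lay within 2 kb of 91 members (6.54%, exact interval 5.30 to 7.97%), within 10 kb of 216 (15.5%) and within 50 kb of 574 (41.3%), and the median distance to the nearest was 68.5 kb. The same shares were not computed over all gene starts or other Foxc2 peaks. Whether the members lay nearer to Foxc1 peaks than those do cannot be read from these counts. Of the 1206 genes with a member at the start, 595 had a Foxc1 summit in their span or within 50 kb (49.3%, exact interval 46.5 to 52.2%), against 4469 of the 16286 other genes of known strand (27.4%). A further Foxc2 peak outside the group lay in the same range of 268 of them (22.2%, exact interval 19.9 to 24.7%), against 9.43% of the others. Gene length and the density of neighbouring genes were not balanced between these sets, and their part in these shares was not tested.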

How the data were processed

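Foxc1, Foxc2 and input ChIP libraries were grouped by sample title. The submitters' processing notes name Bowtie2, MACS2 and mm10. Which control, settings or pooling went into the peak calls is not stated in the labels. The deposited peak lists give a fold (a ratio to local background), and minus log10 (−log10) p-values and q-values by the authors' caller. The deposited score column repeats the q-value and was not used. Depth is unknown.

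Gene spans, strands and promoter windows came from RefSeq tables of GRCm38.p6, the assembly of mm10. Promoters were matched by gene ID, 17492 of 21887. The promoter start lay within 100 bp of the outer end of the gene in 77.4% of genes and in 75.9% of member promoters. Distances in the text are to the outer end unless the printed promoter is named. No promoter of chromosome 18 was used here.

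Overlap was counted from 1 shared bp. Shares carry exact Clopper-Pearson 95% intervals, and 0 counts a limit of 3 counts. Comparisons between groups of peaks used two-sided Fisher's exact tests (scipy 1.17.1), Benjamini-Hochberg adjusted over 8 tests, threshold 0.05. Gene lists were described by counts beside the share of all genes, with no test. Functions were tested on simulated data. Members and lists were chosen with earlier results of these data known. Named were the 15 members of highest fold, the strongest at stops and at head-to-head starts, those nearest to 1 kb, up to 4 genes per list and 9 genes always examined, with exceptions stated. The report gives a selection of those. Alternatives covered the distance, the overlap, stricter peaks, the ends counted and the promoter window.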

Additional observations from a re-analysis of the deposited data

How the results depend on the processing

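Of the recomputed values that answer a comparison, 87 kept their direction and side of the threshold or stayed within their interval, 11 moved further and 2 lost their call. In 4 cases, none of them a difference that had passed, the odds ratio crossed 1. Against overlapped peaks, start against stop gave 0.488 with ends within 0.5 kb and 0.942 at a q-value of at most 1e-05, and the upstream share 1.89 at fold 5 or more. Against Foxc1-only peaks, head-to-head starts gave 1.02 with ends within 0.5 kb. The number of members was 557 with a q-value of at most 1e-05 and 122 with a fold of 5 or more, which follows from fewer peaks. The share of starts was 96.9% with ends within 2 kb, 96.5% at the stricter q-value, 93.8% at fold 5 or more and 96.8% with ends of all genes of the table. The upstream share was 37.8% at the stricter q-value and 46.2% at fold 5 or more, and the head-to-head share 8.92 and 5.49%. The share of podocyte genes with a member was 17.5% at fold 5 or more. At fold 5 or more, 2 differences by Fisher's exact test were lost, the upstream share against Foxc1-only peaks (odds ratio 0.757) and the forkhead core against overlapped peaks (odds ratio 0.149). The cause was not tested. The alternative of a window centred on the summit was not run, as no genome sequence was used here. No paired analysis was possible because each antibody has 1 library. Depth is unknown, so absence of a peak may be a site below detection.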
